A study of Mus musculus with 9 samples.

Results

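The expression of 8 genes of the Notch pathway was followed across 3 CD8 T-cell clones, Rop7-I, -II and -III. They were taken by symbol from the deposited expression table and are the receptors Notch1, Notch2 and Notch3, the protease Adam10, the nuclear factors Rbpj and Maml1, and the target genes Dtx1 and Hes1. All 8 symbols were found among the 24060 genes of the table. Of the 8, 7 were tested, and 2 passed an F test across the clones (adjusted p under 0.01), as 14.1% of all tested genes did. Notch3 and Dtx1 were highest in Rop7-II, intermediate in Rop7-I and lowest in Rop7-III T cells. Their samples did not overlap between the clones, and 2.12% of all tested genes showed this order without overlap. The difference of Notch3 between Rop7-III and Rop7-I did not pass. The steps of Dtx1 to and from Rop7-I depended on single samples. Notch1, Notch2, Adam10, Rbpj and Maml1 differed little between the clones, and Hes1 was barely detected in any of them.

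The samples were CD8 T cells of 3 transnuclear mouse lines, made by transfer of the nucleus of a CD8 T cell into an oocyte, so that each line carries the rearranged T-cell receptor (TCR) genes of a lone donor T cell. The 3 receptors bind the same Rop7 peptide of Toxoplasma gondii on H-2Ld and differ in sequence and in self-reactivity, which the study ranked highest for Rop7-III and lowest for Rop7-II. The lines had been backcrossed to BALB/c, and the study describes the sequenced cells as homozygous for the transnuclear TCR genes. The labels and methods used here give no age, and each line stands for 1 receptor in 1 founder genome. Splenocytes received IL-2 (10 ng per ml) overnight but no antigen, and CD3+ CD8+ cells positive for H-2Ld-Rop7 tetramer were then sorted. Polyadenylated RNA of 3 biological replicates per clone was sequenced, 9 samples in all. The labels do not say whether replicates came from separate mice, so that p-values measure the spread between these samples, which may be technical.

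Notch receptors are activated when a ligand on a neighbouring cell pulls on the receptor, ADAM10 cuts it outside the membrane and gamma-secretase then frees the intracellular domain. That domain enters the nucleus and joins the DNA-binding protein RBPJ and a Mastermind coactivator such as MAML1 to switch on target genes, among them those of the HES and HEY repressors and of Deltex-1. In the T lineage, Notch1 drives commitment of thymic progenitors, Notch3 is known from immature thymocytes, and Notch signals also contribute to the effector responses of mature CD8 T cells.

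Values are TPM, transcripts relative to all transcripts of a sample after correction for gene length, so that levels of different genes can be set beside each other. The study gives only a typical number of reads per sample. The expression values hold no read counts, so the depth of each sample is unknown and counting intervals could not be given. Between 11056 and 11494 genes were over 1 TPM in a sample. Cd8b1 lay between 2051.96 and 2385.84 TPM and Cd3e between 637.42 and 732.03 TPM in the 9 samples. The 3 markers of CD4 T cells summed to between 1.66 and 12.4 TPM. Cd4 (6.75 TPM) and Foxp3 (5.00 TPM) were highest in Rop7-II replicate 1. Cd40lg was highest in the Rop7-III samples, at 3.70, 2.90 and 3.01 TPM, and reached at most 0.70 TPM elsewhere. In Rop7-II replicate 1, markers of B cells and of myeloid cells were far higher than elsewhere. All 12 B-cell markers in the table (of 14 listed) and all 7 myeloid markers in the table (of 8 listed) had their highest value in that sample. The 12 B-cell markers summed to 1762 TPM in it and to between 106 and 748 TPM in the other 8 samples, and the 7 myeloid markers summed to 637 TPM against 37.0 to 216 TPM. No marker of either list was at 0 in all samples. Erythroid markers (4) summed to between 0 and 504 TPM, highest in Rop7-I replicate 2, and NK-cell markers (4) to at most 1.70 TPM. In a bulk sample, fewer cells of a type and less RNA per cell cannot be told apart.

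The windows around the transcription start of the 2 genes that set the clones apart are shown first, with that of Hes5, another Notch target that differed, and that of Rbpj. Each runs from 250 bases before to 50 bases after a start site on GRCm38.p6 and is RefSeq sequence written 5′ to 3′ along the gene. Some of these start sites, such as those of Dtx1 and Rbpj, lie inside the gene spans given below and not at their outer end. Windows were found for 7 of the 8 genes, all but Hes1. Capitals mark the core of the RBPJ binding motif (TGGGAA, or TTCCCA on the other strand) and the GC box bound by Sp-family factors (GGGCGG, or CCGCCC on the other strand). No RBPJ core overlapped a GC box in these windows, while GC boxes can overlap each other.
Notch3, minus strand, chr17:32166841-32167140: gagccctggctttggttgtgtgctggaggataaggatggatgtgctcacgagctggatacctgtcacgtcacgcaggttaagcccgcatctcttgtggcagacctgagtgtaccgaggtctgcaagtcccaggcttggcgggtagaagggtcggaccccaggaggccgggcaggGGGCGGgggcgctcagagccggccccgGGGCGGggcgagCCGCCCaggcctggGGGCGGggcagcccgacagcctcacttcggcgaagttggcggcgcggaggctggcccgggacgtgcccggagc
Dtx1, minus strand, chr5:120711620-120711919: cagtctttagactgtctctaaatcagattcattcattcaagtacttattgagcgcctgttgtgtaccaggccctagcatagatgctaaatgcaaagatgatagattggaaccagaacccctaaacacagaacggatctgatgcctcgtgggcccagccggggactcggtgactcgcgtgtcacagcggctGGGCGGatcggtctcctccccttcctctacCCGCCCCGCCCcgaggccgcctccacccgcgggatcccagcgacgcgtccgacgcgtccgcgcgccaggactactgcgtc
Hes5, plus strand, chr4:154960673-154960972: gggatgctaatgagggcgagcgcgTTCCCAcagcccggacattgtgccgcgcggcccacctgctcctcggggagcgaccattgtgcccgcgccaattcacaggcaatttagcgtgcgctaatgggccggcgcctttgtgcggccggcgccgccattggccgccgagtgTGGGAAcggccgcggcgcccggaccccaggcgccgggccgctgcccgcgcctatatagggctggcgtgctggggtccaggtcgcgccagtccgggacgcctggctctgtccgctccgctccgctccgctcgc
Rbpj, plus strand, chr5:53590096-53590395: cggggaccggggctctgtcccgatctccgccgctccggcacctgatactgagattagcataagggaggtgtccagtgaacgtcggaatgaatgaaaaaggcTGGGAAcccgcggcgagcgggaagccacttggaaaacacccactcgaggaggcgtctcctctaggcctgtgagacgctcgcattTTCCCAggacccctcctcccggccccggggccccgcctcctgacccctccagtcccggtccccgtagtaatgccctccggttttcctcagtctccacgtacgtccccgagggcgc

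The Notch3 and Dtx1 windows held 0 RBPJ cores, and 4 and 3 GC boxes. The Hes5 window held 2 RBPJ cores and 0 GC boxes, and the Rbpj window shown held 2 RBPJ cores. A second Rbpj window, which overlaps the first, held 1 RBPJ core, and those of Notch1, Notch2, Maml1 and Adam10 held 0. Of 32851 windows of the same length over all genes, 25.6% held an RBPJ core and 35.7% a GC box. GC content was 70.0% in the Notch3, 59.3% in the Dtx1 and 72.7% in the Hes5 window, against a median of 52.7%. The last bases of the Notch3 window, unlike those of the other windows, were not found in a GENCODE transcript, so a transcribed start there rests on RefSeq alone. These are matches of letters, and an absent match says only that the letters are not in this window.

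Notch1 and Notch2 were the abundant receptors and Notch3 the rare receptor in every sample. Notch1, on chromosome 2 of GRCm38.p6 from 26457902 to 26503822, lay between 62.11 and 81.21 TPM across the 9 samples, above 77.2% of the tested genes by its mean. Its level was 74.2 ± 6.74 TPM (SD, n = 3) in Rop7-I, 69.8 ± 6.75 TPM for Rop7-II and 70.0 ± 2.05 TPM for Rop7-III, and the clones overlapped. Notch2, on chromosome 3 from 98013538 to 98150367, was lower, between 43.66 and 54.02 TPM. It was 47.2 ± 3.75 TPM (SD, n = 3) in Rop7-I, 51.8 ± 2.71 TPM for Rop7-II and 47.9 ± 1.81 TPM for Rop7-III, again with overlap. In each of the 9 samples Notch1 was above Notch2 and Notch2 above Notch3.

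Notch3, on chromosome 17 from 32120820 to 32166896, was the receptor that differed. Its values were 7.23, 8.55 and 6.73 TPM in the Rop7-II samples, 2.72, 2.36 and 1.93 TPM in the Rop7-I samples and 1.11, 1.30 and 0.94 TPM in the Rop7-III samples. Every Rop7-II sample lay above every Rop7-I sample, and every Rop7-I sample above every Rop7-III sample. The means were 7.50 ± 0.940, 2.34 ± 0.396 and 1.12 ± 0.180 TPM (SD, n = 3 each), so that the mean in Rop7-II was 6.72 times that in Rop7-III and 3.21 times that in Rop7-I T cells. With its small level Notch3 made up 5.80% ± 0.509 (SD, n = 3) of the summed TPM of the 3 receptors in Rop7-II, 1.88% ± 0.190 in Rop7-I and 0.941% ± 0.174 in Rop7-III T cells. The sum itself was 129 ± 7.58, 124 ± 9.16 and 119 ± 3.04 TPM (SD, n = 3) in the same order.

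**Figure D1:**
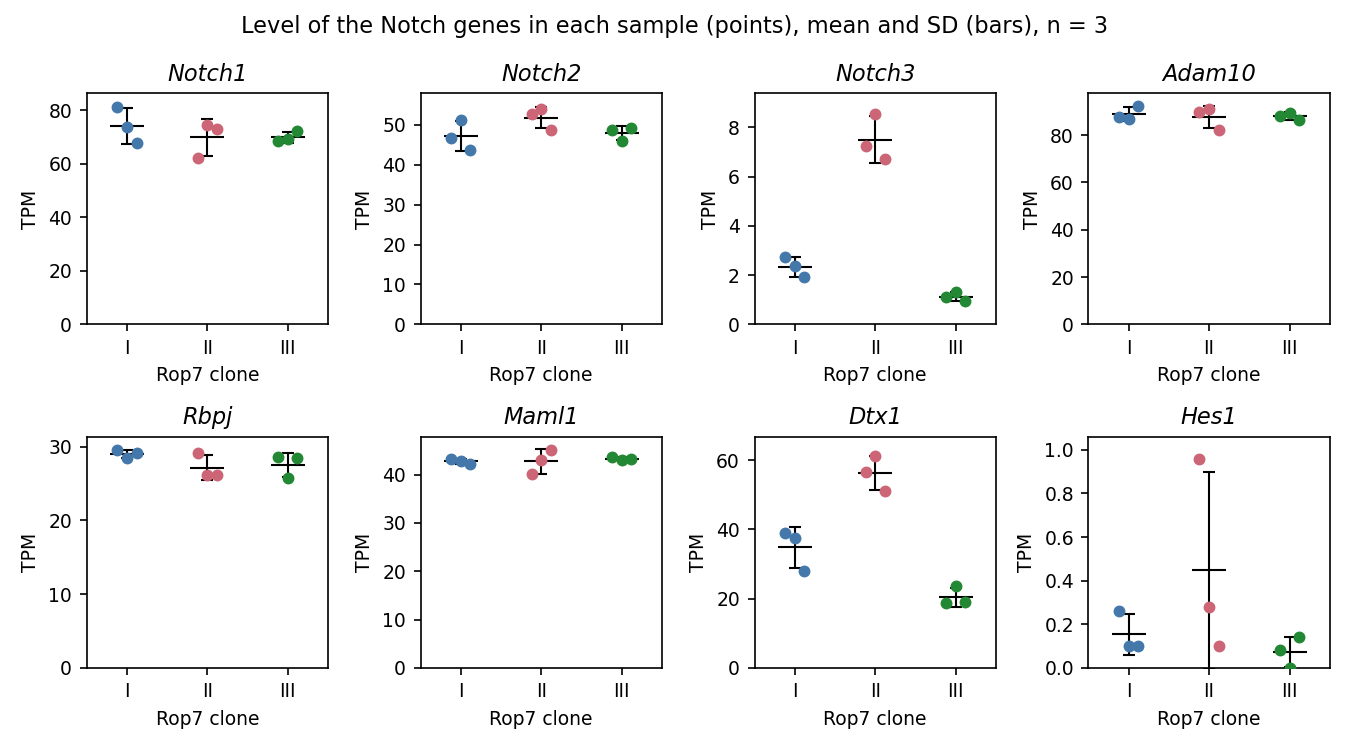
Level in TPM (linear axes from 0) of the 8 Notch genes by clone; points are samples, horizontal bars the mean and whiskers the SD (n = 3), the whisker of Hes1 in Rop7-II being cut at 0. Notch3 and Dtx1 step down from Rop7-II over Rop7-I to Rop7-III without overlap, and the other 6 genes overlap between clones.

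The clones were compared with limma on log2(TPM + 1), with adjusted p from the Benjamini-Hochberg method over 12115 genes that exceeded 1 TPM in some sample, and a gene passed at an adjusted p under 0.01. Of the 8 Notch genes 7 were tested, since Hes1 did not exceed 1 TPM. Adding 1 TPM draws the fold change of a weakly expressed gene such as Notch3 towards 0. In Rop7-III against Rop7-II, Notch3 and Dtx1 passed and both were lower in Rop7-III, 2 of 7 where 12.3% of all tested genes passed (5.89% lower and 6.39% higher). Both also differed at least 2-fold, as 1.70% of all tested genes did. A 2-fold difference was counted on TPM + 1 and only for genes that passed. With Rop7-I set against Rop7-II the same 2 genes passed and were lower in Rop7-I, where 7.53% of all tested genes passed (3.85% lower and 3.67% higher), and Notch3 alone also differed 2-fold (0.949% of all genes). Comparing Rop7-III with Rop7-I Dtx1 alone passed, lower in Rop7-III, where 4.85% of all genes did (2.28% lower and 2.58% higher). There 0 of 7 passed with a 2-fold difference (1.06% of all genes did), although the mean TPM of Notch3 in Rop7-I was 2.09 times that in Rop7-III. In each comparison the samples did not overlap for Notch3 and Dtx1, 2 of 7, as for 40.7% of all tested genes in Rop7-III against Rop7-II, 38.2% in Rop7-III against Rop7-I and 35.0% in Rop7-I against Rop7-II. An F test across the 3 clones was passed by Notch3 (adjusted p = 3.86e-05) and Dtx1 (adjusted p = 2.45e-04), 2 of 7 where 14.1% of all genes passed. A fold change given for a first clone against a second is negative where the first is lower. The 3 comparisons share samples and are not independent of each other.

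The log2 fold change of Notch3 was -2.00 (standard error 0.14, adjusted p = 1.95e-05) for Rop7-III against Rop7-II and -1.35 (standard error 0.14, adjusted p = 2.80e-04) for Rop7-I against Rop7-II. For Rop7-III against Rop7-I it was -0.65 (95% interval -0.96 to -0.35, adjusted p = 0.0146), which did not pass although the samples did not overlap. Adding 0.1 TPM in place of 1 gave -2.65 and -1.65 from Rop7-II, and the difference from Rop7-I then passed too (adjusted p = 0.00918). When Rop7-II replicate 1 was left out, Notch3 differed by -2.02 for Rop7-III against Rop7-II (adjusted p = 6.14e-05). The difference from Rop7-II passed with each of the 9 samples left out in turn, with adjusted p up to 2.19e-04 for Rop7-III and up to 0.00207 for Rop7-I T cells. The RNA was sequenced without strand, and 2 long noncoding RNAs not in the table, Gm38585 and Gm41568, overlap Notch3 on the genome. Their reads cannot be told apart from those of Notch3 where they share sequence. Noncoding genes also overlap Notch1 (0610009E02Rik and Mir6996) and Notch2 (Gm40103), and a pseudogene overlaps Adam10 (Cycs-ps1).

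By contrast, the differences of Notch1 and Notch2 were small and did not pass. In Rop7-III against Rop7-II, Notch1 differed by 0.01 on the log2 scale (95% interval -0.17 to 0.18, adjusted p = 0.961) and Notch2 by -0.11 (95% interval -0.25 to 0.03, adjusted p = 0.233). Over the other comparisons Notch1 stayed within intervals of -0.26 to 0.10 and -0.09 to 0.27, and Notch2 within -0.12 to 0.17 and -0.28 to 0.01. Notch2 is also expressed by B cells. It was 52.68 TPM in Rop7-II replicate 1, the sample with most B-cell and myeloid marker RNA, and 54.02 TPM in Rop7-II replicate 2. With the mean level of the B-cell markers as a covariate, an alternative added after seeing the data, no difference of Notch2 passed. How much such cells add to its level was not tested.

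Adam10, Rbpj and Maml1, the genes among the 8 that cut the receptors or act with them in the nucleus, were nearly flat. Adam10, which makes the first ligand-induced cut, lies on chromosome 9 from 70678944 to 70780229 and was the most abundant of the 8 genes, between 82.07 and 92.13 TPM. Its clone means were 88.8 ± 2.93, 87.6 ± 4.81 and 88.0 ± 1.59 TPM (SD, n = 3) in Rop7-I, Rop7-II and Rop7-III T cells. Rbpj, the DNA-binding partner on chromosome 5 from 53555779 to 53657445, lay between 25.71 and 29.59 TPM, with clone means of 29.0 ± 0.582, 27.1 ± 1.69 and 27.6 ± 1.61 TPM (SD, n = 3). Maml1, the coactivator on chromosome 11 from 50255634 to 50293131, lay between 40.03 and 45.03 TPM, with means of 42.8 ± 0.503, 42.7 ± 2.52 and 43.3 ± 0.311 TPM (SD, n = 3). The highest clone mean exceeded the lowest 1.01 times for Adam10 and Maml1 and 1.07 times for Rbpj, and the samples of the clones overlapped in each comparison. The largest of the 9 differences was 0.10 on the log2 scale, for Rbpj for Rop7-I against Rop7-II (95% interval -0.04 to 0.23, adjusted p = 0.307). For Adam10 and Maml1 no interval reached beyond -0.11 or 0.12. Differences within these widths could not be told from 0 with 3 samples per clone.

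**Figure D2:**
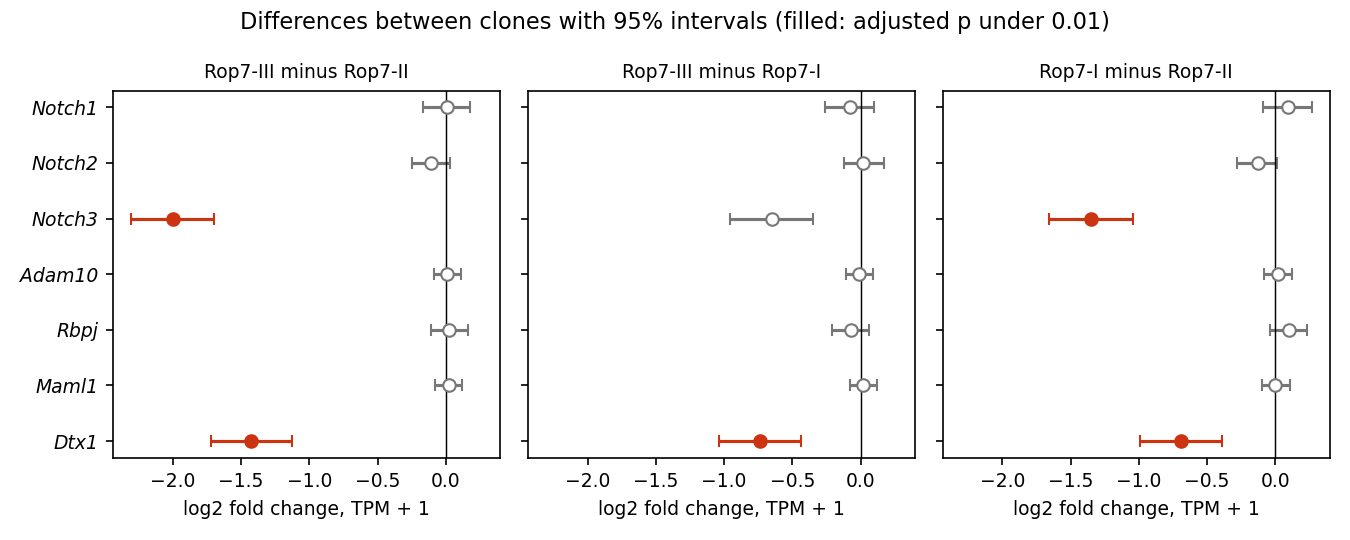
Log2 fold change of TPM + 1 (x axis) of the 7 tested Notch genes in the 3 comparisons of clones, with 95% intervals from limma; filled points passed at an adjusted p under 0.01. Notch3 and Dtx1 lie left of 0 in each comparison, while the intervals of the other 5 genes reach or cross 0.

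Dtx1 encodes Deltex-1, an E3 ubiquitin ligase that is itself induced by Notch and acts back on the pathway. It lies on chromosome 5 from 120680203 to 120711867, and no other annotated gene overlaps it. Its values were 56.47, 61.23 and 51.22 TPM in the Rop7-II samples, 38.99, 37.51 and 28.01 TPM in the Rop7-I samples and 18.61, 23.63 and 18.93 TPM in the Rop7-III samples. As for Notch3, the samples of the 3 clones did not overlap, and the order was the same. The means were 56.3 ± 5.01, 34.8 ± 5.96 and 20.4 ± 2.81 TPM (SD, n = 3), so that the mean in Rop7-II was 2.76 times that in Rop7-III and 1.62 times that in Rop7-I T cells. In absolute level Dtx1 was well above Notch3 in every sample. Set beside the flat genes of the same samples, it was above Rbpj and Maml1 in all Rop7-II samples and below both in all Rop7-III samples.

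The log2 fold change of Dtx1 was -1.43 (standard error 0.13, adjusted p = 9.77e-05) for Rop7-III against Rop7-II, and it passed with each sample left out (adjusted p up to 9.37e-04). The steps by way of Rop7-I were smaller and less certain. With Rop7-III set against Rop7-I it was -0.74 (standard error 0.13, adjusted p = 0.00752), and it no longer passed without Rop7-I replicate 1 (adjusted p = 0.0335), Rop7-I replicate 2 (0.0321), Rop7-III replicate 1 (0.0322) or Rop7-III replicate 3 (0.0338). Comparing Rop7-I with Rop7-II it was -0.69 (standard error 0.13, adjusted p = 0.00776), and leaving out any sample but Rop7-III replicate 2 gave an adjusted p above 0.01, between 0.0120 without Rop7-I replicate 1 and 0.0247 without Rop7-II replicate 2. The others were 0.0193 and 0.0166 without Rop7-I replicates 2 and 3, 0.0159 and 0.0128 without Rop7-II replicates 1 and 3, and 0.0131 and 0.0132 without Rop7-III replicates 1 and 3.

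Dtx1 is expressed by B cells as well as T cells, so its level is set beside the B-cell markers. In Rop7-II replicate 1, where those markers were highest, Dtx1 was 56.47 TPM, and in Rop7-II replicate 2, where they summed to 140.0 TPM, it was 61.23 TPM. Without Rop7-II replicate 1 the log2 fold change for Rop7-III against Rop7-II was -1.42 (adjusted p = 2.93e-04). With the mean level of the B-cell markers as a covariate, an alternative added after seeing the data, it was -1.42 (adjusted p = 2.36e-04), while that for Rop7-III against Rop7-I was -0.72 and did not pass (adjusted p = 0.0214). The same covariate gave -2.03 for Notch3 in Rop7-III against Rop7-II (adjusted p = 4.02e-05).

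**Figure D3:**
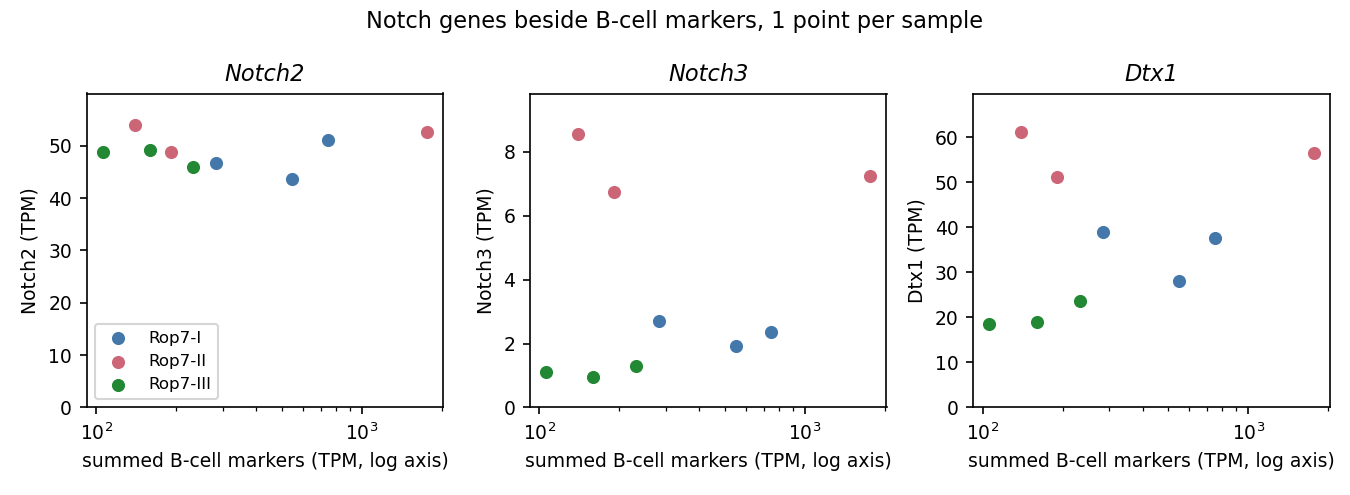
Levels of Notch2, Notch3 and Dtx1 (y axes, TPM from 0) against the summed TPM of 12 B-cell markers (x axis, log scale), 1 point per sample, coloured by clone. Rop7-II replicate 1, the rightmost point at 1762 TPM of markers, lies among the other Rop7-II samples in all 3 genes.

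Hes1, a repressor that is a direct Notch target in thymocytes, lies on chromosome 16 from 30065357 to 30067796. It was 0.26, 0.10 and 0.10 TPM for Rop7-I, 0.96, 0.28 and 0.10 TPM for Rop7-II and 0.08, 0.00 and 0.14 TPM for Rop7-III samples. The clones overlapped, and the highest value was in the sample with most B-cell and myeloid marker RNA, whose part in it was not tested. At these levels no difference between clones could be read. Without the filter on low values, the differences had adjusted p between 0.212 and 0.812.

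The order Rop7-II over Rop7-I over Rop7-III without overlap was shown by 2 of the 7 tested Notch genes, and by 2.12% of all tested genes. The level of Cd5, which the study uses as a marker of self-reactivity, ran in the opposite order, with means of 41.4, 67.6 and 178 TPM for Rop7-II, Rop7-I and Rop7-III T cells. The tested genes whose log2(TPM + 1) ran most closely with Notch3 over the 9 samples were Sept6, Parp3 and Csgalnact2, with Pearson's r of 0.9923, 0.9858 and 0.9846. Those closest to Dtx1 were Pcsk1, Mcm5 and Hsph1, with r of 0.9922, 0.9904 and 0.9842. The samples fall into 3 clones, so these coefficients describe mainly the order of the clones and were not tested. The sizes of the differences were unlike. Sept6 ranged only from 173.05 to 194.91 TPM and Mcm5 from 26.55 to 37.89 TPM, while Pcsk1 ranged from 2.49 to 23.22 TPM.

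The genes next to Notch3 and Dtx1 on the genome were examined, and are named after their values were seen. Within 1 Mb of Notch3, 28 other genes were tested, and for Rop7-III against Rop7-II 5 passed, where 12.3% of all tested genes did, but 0 of them differed 2-fold (1.70% of all genes). Among them, the log2 fold changes were -0.28 in Akap8, -0.24 in Pknox1, -0.19 in Slc37a1 and 0.33 in Pglyrp2. Within 1 Mb of Dtx1, 26 genes were tested and 2 passed in the same comparison, Slc8b1 (0.74, higher in Rop7-III) and Tpcn1 (0.18), again with 0 at 2-fold. Each neighbour of Notch3 that passed differed less than Notch3 itself, and those of Dtx1 that passed differed the other way.

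A wider list of 77 Notch pathway genes was then examined by role, of which 62 were tested. For Rop7-III against Rop7-II 13 of the 62 passed, 10 higher and 3 lower in Rop7-III, which is 21.0% beside 12.3% of all tested genes. The median log2 fold change was 0.04, beside -0.02 over all genes. In Rop7-I against Rop7-II 12 passed, 8 higher and 4 lower in Rop7-I (19.4% beside 7.53%), with a median of 0.01 beside -0.01. With Rop7-III set against Rop7-I 3 passed, all higher in Rop7-III (4.84% beside 4.85%), with a median of 0.02 beside 0.00. The counts depended on single samples and ranged from 7 to 12, from 2 to 11 and from 1 to 6 when each sample was left out in turn.

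Apart from Jag2, the ligands and the fourth receptor were scarcely present in the sorted cells. Of 9 listed genes 2 were tested, and 0 of the 2 passed in any comparison. Jag2, a ligand, was the only one of them expressed throughout, between 10.48 and 15.02 TPM, with clone means of 13.1 ± 1.11, 11.1 ± 0.850 and 12.9 ± 1.90 TPM (SD, n = 3) in Rop7-I, Rop7-II and Rop7-III T cells. Jag1 reached 3.02 TPM for Rop7-I replicate 1 and at most 0.29 TPM elsewhere. Notch4 stayed at or under 0.94 TPM.

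Of 12 tested genes for receptor processing and sugar modification, 2 passed for Rop7-III against Rop7-II, both higher in Rop7-III (16.7% beside 12.3% of all genes). Furin, the protease that cuts Notch receptors on their way to the surface, was 90.8 ± 2.25 TPM for Rop7-III, 84.2 ± 2.99 TPM for Rop7-I and 68.5 ± 3.25 TPM for Rop7-II (SD, n = 3). Its log2 fold change from Rop7-II was 0.40 in Rop7-III (adjusted p = 2.71e-04) and 0.29 in Rop7-I T cells (adjusted p = 0.00227), and the latter did not pass without Rop7-I replicate 1 (0.0112) or 2 (0.0128). Psen2, a catalytic subunit of gamma-secretase, rose by 0.27 (adjusted p = 0.00843) and did not pass in 8 of the 9 analyses that left a sample out. The Fringe enzymes, which add sugars that tune the response to ligands, were abundant, with Lfng between 649.15 and 784.06 TPM. Rfng was lower in Rop7-I relative to Rop7-II, by -0.42 (adjusted p = 0.00223, and 0.0104 without Rop7-I replicate 1). Mfng was higher in Rop7-III relative to Rop7-I by 0.15 (adjusted p = 0.00864), a call lost in 8 of the 9 analyses.

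All 19 listed nuclear cofactors were tested, and 5 passed for Rop7-III against Rop7-II, 3 higher and 2 lower (26.3% beside 12.3% of all genes). The difference with the smallest adjusted p was in Maml2, a Mastermind coactivator related to Maml1. Its values were 42.54, 43.95 and 43.68 TPM for Rop7-III, 35.80, 35.89 and 36.25 TPM for Rop7-I and 28.19, 31.91 and 30.85 TPM for Rop7-II samples, an order opposite to that of Notch3 and Dtx1. Its log2 fold change was 0.50 (adjusted p = 1.32e-04) for Rop7-III against Rop7-II, 0.24 (adjusted p = 0.00967) for Rop7-I against Rop7-II and 0.26 (adjusted p = 0.00852) for Rop7-III against Rop7-I, of which the last 2 were lost in 8 and 7 of the 9 analyses that left a sample out. Spen, a corepressor that works with RBPJ, was lower in Rop7-III relative to Rop7-II by -0.35 (adjusted p = 0.00142), and its samples ran without overlap in the order of Dtx1. Tle4, a Groucho corepressor, was higher by 0.22 (adjusted p = 0.00292, and 0.0102, 0.0102 and 0.0101 without Rop7-II replicate 2, Rop7-III replicate 2 or Rop7-III replicate 3). Kdm5a (0.20, adjusted p = 0.00893) and Ctbp1 (-0.13, adjusted p = 0.00876) passed by a narrow margin and were lost in 8 and 9 of the 9 analyses. Comparing Rop7-I with Rop7-II, 4 passed (21.1% beside 7.53%). Among these, beside Maml2, were the corepressors Ctbp1 (-0.19, adjusted p = 0.00222, lost in 1 of the 9 analyses, without Rop7-I replicate 2) and Tle3 (-0.22, adjusted p = 0.00311, lost in 2, without Rop7-I replicate 2 or 3), both lower in Rop7-I.

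Of 14 tested ubiquitin and endocytic regulators, 3 passed for Rop7-III against Rop7-II, all higher in Rop7-III (21.4% beside 12.3% of all genes, 6.39% higher). Mib2, a ligase that acts on ligands, rose by 0.40 (adjusted p = 0.00118), and by 0.52 (adjusted p = 6.19e-04) against Rop7-I T cells. Fbxw7, which marks the intracellular domain for degradation, rose by 0.34 (adjusted p = 8.92e-04), and Numb, an adaptor that restrains Notch, by 0.30 (adjusted p = 0.00114). These calls held with each sample left out. For Rop7-I against Rop7-II 3 also passed (21.4% beside 7.53%), Numb (0.25, adjusted p = 0.00426), Fbxw7 (0.26, adjusted p = 0.00564) and Dtx3l (0.33, adjusted p = 0.00965), which were lost in 5, 8 and 7 of the 9 analyses.

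Of 20 other genes reported as Notch targets, 15 were tested. For Rop7-III against Rop7-II 2 passed as higher and 1 as lower (20.0% beside 12.3% of all genes), and for Rop7-I against Rop7-II 3 passed, all higher in Rop7-I (20.0% beside 7.53%). The lower gene was Hes5, a repressor of the same family as Hes1 whose start window held 2 RBPJ cores. Hes5 was 5.07, 5.70 and 4.64 TPM for Rop7-II, 4.29, 3.59 and 3.87 TPM for Rop7-I and 2.16, 1.71 and 3.11 TPM for Rop7-III samples, the order of Notch3 and Dtx1 without overlap. Of the 62 tested genes of the wider list, 2 showed this order, Hes5 and Spen (3.23% beside 2.12% of all tested genes). Its log2 fold change for Rop7-III against Rop7-II was -0.90 (standard error 0.16, adjusted p = 0.00321), which did not pass without Rop7-II replicate 2 (0.0114), Rop7-III replicate 1 (0.0151) or Rop7-III replicate 2 (0.0113). The other steps did not pass (-0.58, adjusted p = 0.0395, for Rop7-III against Rop7-I and -0.32, adjusted p = 0.195, for Rop7-I against Rop7-II). Hey1, a related repressor named here after its values were seen, did not exceed 1 TPM and was not tested. It was 0.71, 0.99 and 0.93 TPM for Rop7-II, 0.61, 0.64 and 0.89 TPM for Rop7-I and 0.35, 0.46 and 0.09 TPM for Rop7-III samples, and at these levels no difference between clones could be read. Nrarp, a feedback inhibitor also named after its values were seen, lay between 0.98 and 1.88 TPM with full overlap.

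**Figure D4:**
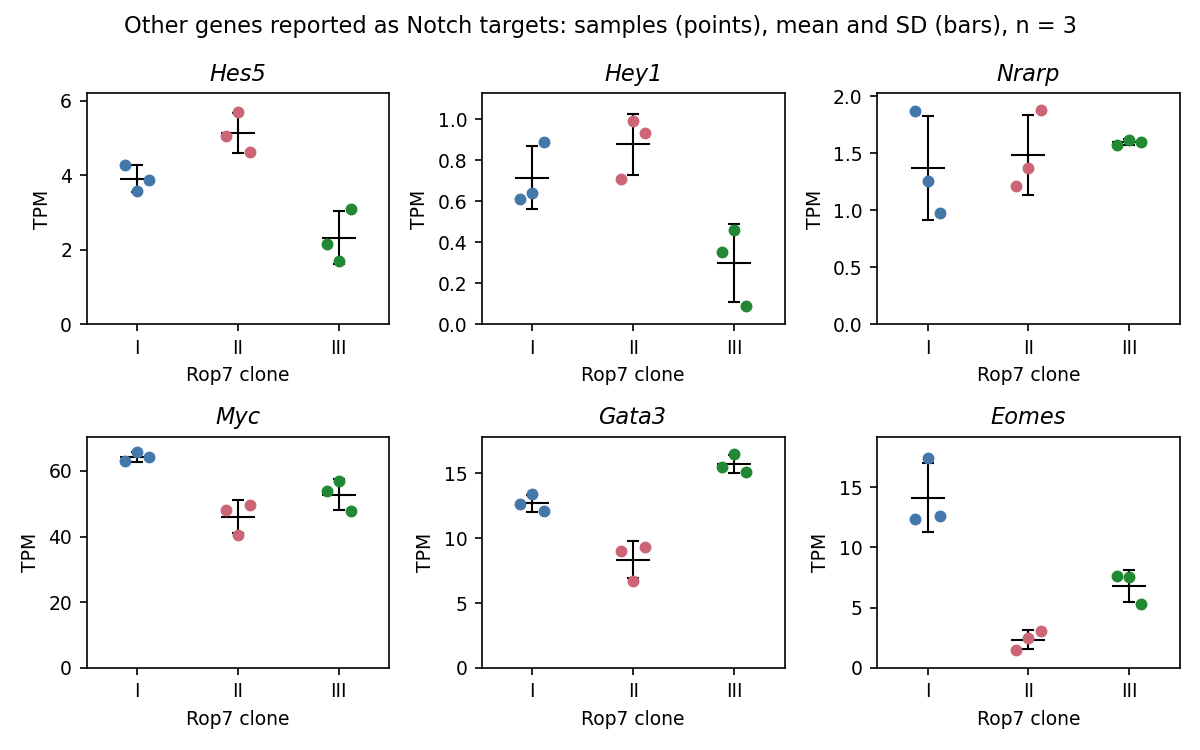
Level in TPM (linear axes from 0) of 6 other genes reported as Notch targets, by clone; points are samples, horizontal bars the mean and whiskers the SD (n = 3). Hes5 is highest in Rop7-II and lowest in Rop7-III, Gata3 is lowest in Rop7-II and highest in Rop7-III, Eomes and Myc are highest in Rop7-I, and Nrarp overlaps between the clones.

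Gata3 and Eomes, transcription factors of T-cell identity and of CD8 effector and memory states, were lowest in Rop7-II T cells. Gata3 was 8.35 ± 1.43 TPM for Rop7-II, 12.7 ± 0.675 TPM for Rop7-I and 15.7 ± 0.695 TPM for Rop7-III (SD, n = 3), a log2 fold change for Rop7-III against Rop7-II of 0.85 (adjusted p = 6.36e-04). In Rop7-I against Rop7-II it was 0.56 (adjusted p = 0.00783), a call lost in 6 of the 9 analyses that left a sample out. Eomes was 1.49, 2.45 and 3.07 TPM for Rop7-II, 12.35, 17.46 and 12.59 TPM for Rop7-I and 7.62, 7.55 and 5.30 TPM for Rop7-III samples. Its log2 fold change was 2.19 (adjusted p = 1.88e-04) for Rop7-I against Rop7-II and 1.24 (adjusted p = 0.00262) for Rop7-III against Rop7-II, the latter 1.17 without Rop7-III replicate 1 (0.0138) or Rop7-III replicate 2 (0.0134). Myc, a driver of cell growth, was higher in Rop7-I relative to Rop7-II by 0.48 (adjusted p = 0.00465), and did not pass without Rop7-I replicate 1 (0.0158), 2 (0.0230) or 3 (0.0180) or without Rop7-III replicate 1 (0.0101). With Rop7-III set against Rop7-I 0 of the 15 passed.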

How the data were processed

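RNA-seq of sorted CD8 T cells was compared between 3 clones with 3 samples each, assigned by their titles. Per the paper, the authors aligned single-end, non-strand-specific reads and quantified genes with RSEM (v. 1.2.11) against RefSeq genes of mm10, and they deposited TPM for 24060 genes with 2 decimals. As TPM are not counts, the authors' DESeq2 (v. 1.8.1) test was replaced by limma (v. 3.58.1, R 4.3.3) on log2(TPM + 1), fitted to all 9 samples with a variance trend and no block. The authors' filter (maximum TPM over 1) left 12115 genes, and their limit of 0.01 on the adjusted p was kept. TPM do not give the depth of each sample, and no counting error was computed. Every column of the table was used. The fit was also run on simulated data with independent normal noise. Changes were placed there only in genes with a higher mean than Notch3, so genes as weak as Notch3 were not covered. Marker RNA of other cells in single samples was not simulated either.

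The genes and lists were chosen with earlier results of these data known. Named genes were the 8 Notch genes, up to 5 passing genes per list and comparison, 3 genes of most similar pattern, neighbours within 1 Mb that passed with a 2-fold difference (0 did, and the neighbours named were chosen after their values were seen) and Cd5. Positions came from RefSeq on GRCm38.p6, the primary assembly of mm10, and matched 94.1% of tested genes. Replicate numbers did not pair the samples. Alternatives were another pseudocount, filter, scaling, variance model, sample weights, threshold or set of samples, the replicate block and each sample left out. Some genes counted in the lists are not reported here by name.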

Additional observations from a re-analysis of the deposited data

How the results depend on the processing

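Over the alternatives, the differences of Notch3 and Dtx1 from Rop7-II kept their direction. The log2 fold change for Rop7-III against Rop7-II lay between -2.65 and -1.92 for Notch3 in 19 alternatives and between -1.53 and -1.36 for Dtx1 in 20, and passed in each. That of Notch3 for Rop7-I against Rop7-II passed in 19 of 19 (-1.65 to -1.26). Dtx1 passed in 13 of 20 alternatives for Rop7-III against Rop7-I and in 8 of 20 for Rop7-I against Rop7-II. No difference that passed changed sign. Notch1, Notch2, Adam10, Rbpj and Maml1 passed in none of the alternatives run. Unless stated, the cause of a change was not tested.

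Of the 8 Notch genes, 2 passed for Rop7-III against Rop7-II, 1 for Rop7-III against Rop7-I, 2 for Rop7-I against Rop7-II and 2 in the F test. Requiring 1 TPM in every sample removed Notch3 from the tested genes, which left 1 for Rop7-III against Rop7-II, 1 for Rop7-I against Rop7-II and 1 in the F test. Comparing Rop7-III with Rop7-I the count was 2 with 0.1 TPM added, with sample weights or at an adjusted p under 0.05, and 0 with no filter, with no trend of the spread, with the B-cell marker level as a covariate (added after seeing the data) or with the 2-fold minimum. For Rop7-I against Rop7-II it was 1 with no filter, with no trend, with sample weights, with only the clones compared or with the 2-fold minimum. With 1 sample left out in turn the counts were 2, 0 to 1, 1 to 2 and 2.

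The wider list gave 13, 3 and 12 genes in the same order. In Rop7-III against Rop7-II it gave 8 with only the clones compared, 22 at an adjusted p under 0.05 and 1 with the 2-fold minimum. With Rop7-III set against Rop7-I it gave 1 with a common median, with quantile normalization or with no trend, 7 with sample weights, 6 with only the clones compared, 12 at 0.05 and 0 with the 2-fold minimum. Comparing Rop7-I with Rop7-II it gave 5 with no trend, 3 with only the clones compared, 21 at 0.05 and 1 with the 2-fold minimum. The ranges with a sample left out were 7 to 12, 1 to 6 and 2 to 11.

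Over all tested genes, 1488, 588 and 912 passed. For Rop7-III against Rop7-II there were 939 with only the clones compared, 3041 at 0.05, 206 with the 2-fold minimum and 834 to 1315 with a sample left out. In Rop7-III against Rop7-I there were 1062 with sample weights, 926 with only the clones compared, 1586 at 0.05, 128 with the 2-fold minimum and 258 to 830 with a sample left out. With Rop7-I set against Rop7-II there were 600 with no trend, 433 with only the clones compared, 2163 at 0.05, 115 with the 2-fold minimum and 416 to 875 with a sample left out.

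The replicate numbers are shared between clones, but the deviations of same-numbered samples did not run together (r from -0.388 to 0.106 over 9 pairs, 1 of them over 0.1). With the replicate block, the wider list gave 1 gene for Rop7-III against Rop7-I and 6 for Rop7-I against Rop7-II, and 373 of all genes passed for Rop7-III against Rop7-I. The block changed no call of the 8 Notch genes. The TPM hold no counts, so the precision of values near 1 TPM, such as those of Notch3 in Rop7-III T cells, and of those of Hes1 below it, is unknown.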
